A study of Rattus norvegicus with 24 samples.

Results

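Genes of the brain's blood vessels and of apelin signaling, 10 in number (Apln, Aplnr, Cldn5, Pecam1, Flt1, Kdr, Tek, Abcb1a, Slco1a4 and Esam), were followed in the nucleus accumbens (NAc) of rats exposed to lipopolysaccharide (LPS), to heroin, or to both. They were chosen by name. Of the 10 genes, 9 had a row among the 32545 genes of the deposited table, and Pecam1 was not analysed here. Each of the 9 was described in all 24 libraries, in fragments per kilobase of gene scaled to library size (FPKM), a level per gene length that can be compared between genes.

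All rats were male Sprague Dawley, 8 weeks old on arrival, and the tissue was the core and shell of the NAc. In the injection experiment, rats received 5 intraperitoneal injections of saline or of LPS at 250 µg/kg, spread over the weeks before heroin. Saline or heroin was then injected daily for 5 days at doses that rose from 1 to 5 mg/kg, and the tissue was taken 1 h after the last injection by the labels. By the study's methods, all injected rats first spent a short time in a locomotor chamber after that injection, and the tissue was taken within 1 h of its end. Groups are named by the pretreatment and then by the treatment: Saline-Saline and Saline-Heroin had no LPS, and LPS-Saline and LPS-Heroin had it. The gap between the last LPS and the heroin is 1 week in the labels and 4 days in the study's methods. In the self-administration experiment, rats with a jugular catheter took saline (Saline-SA) or heroin at 0.075 mg/kg per infusion (Heroin-SA) in 10 sessions of 6 h, without LPS, and the tissue was taken right after the last session. These rats were single-housed on a reversed light cycle, whereas the injected rats were pair-housed on the normal cycle. Each of the 6 groups had 4 libraries. All groups are of a single sex and strain, the LPS was given peripherally, and each library is a bulk sample of whole tissue.

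Brain endothelial cells are sealed to each other by tight junctions and carry transporters that let nutrients in and pump drugs out, which together make the blood-brain barrier. Apelin, the product of Apln, is a secreted peptide made by sprouting endothelial cells and by some neurons, and it acts through the G protein-coupled receptor encoded by Aplnr. Vascular endothelial growth factor (VEGF) acts through Kdr and is bound by Flt1, and angiopoietins act through Tek. Vascular density, junctions and transport in striatal tissue depend on these signals. In a bulk sample, fewer endothelial cells and less RNA per endothelial cell cannot be told apart.

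Between 12312878 and 18850240 reads lay on genes in each library. Mitochondrial genes took 6.82% to 9.10% of these reads in the injection experiment and 10.0% to 15.9% in the self-administration experiment, with 12.9% ± 2.47 (SD, n = 4) in Saline-SA and 10.8% ± 0.743 (SD, n = 4) in Heroin-SA. The 8 medium spiny neuron markers, which define striatal tissue, summed to between 1140 and 3056 FPKM in every library, and 0 of them were at 0 in any group. The other endothelial identity genes, 23 of which had values, summed to 60.7 to 84.2 FPKM in the injected rats and 75.8 to 106.9 FPKM in the self-administration rats. The library of Saline-Saline replicate 1 stood apart in choroid plexus markers, which summed to 333.9 FPKM there and to at most 27.1 FPKM in every other library. Values of the 9 genes with an unadjusted p of at most 0.05 in a comparison with Saline-Saline are also given without it. Listed genes with a single row under their symbol passed the thresholds 51 times in such comparisons. Without that library all 51 values kept their sign and 36 still passed. Symbols with several rows, such as Mt1, were left out of this count.

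Esam and Aplnr also have differences below, but no upstream sequence was matched to them. The upstream sequences of 3 other genes with differences below are shown to give the regions from which they are transcribed. They cover the 250 bases before the annotated start, 5′ to 3′ on the gene's own strand, from RefSeq on the rat build GRCr8, whose table matched 6 of the 10 genes (Apln, Cldn5, Flt1, Kdr, Abcb1a and Slco1a4). The 3 regions are chrX:132091247-132091496 on the minus strand for Apln, chr12:12333180-12333429 on the plus strand for Flt1 and chr4:176495847-176496096 on the minus strand for Slco1a4. Capitals mark each match, on either strand, to 4 motifs. The GC box was searched as GGGCGG. The TATA box was searched as TATAAA. The core of a hypoxia response element was searched as ACGTG. The core bound by ETS factors was searched as CCGGAA.
Apln: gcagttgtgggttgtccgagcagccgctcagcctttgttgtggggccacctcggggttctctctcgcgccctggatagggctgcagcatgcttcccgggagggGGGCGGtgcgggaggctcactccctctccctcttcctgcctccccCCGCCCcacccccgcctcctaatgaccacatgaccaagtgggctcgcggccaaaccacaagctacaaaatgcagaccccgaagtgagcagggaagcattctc
Flt1: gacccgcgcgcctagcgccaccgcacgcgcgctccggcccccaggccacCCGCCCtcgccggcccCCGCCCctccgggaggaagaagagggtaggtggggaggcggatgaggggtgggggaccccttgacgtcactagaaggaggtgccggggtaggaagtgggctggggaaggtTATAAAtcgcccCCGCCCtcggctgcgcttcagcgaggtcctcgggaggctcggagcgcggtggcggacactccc
Slco1a4: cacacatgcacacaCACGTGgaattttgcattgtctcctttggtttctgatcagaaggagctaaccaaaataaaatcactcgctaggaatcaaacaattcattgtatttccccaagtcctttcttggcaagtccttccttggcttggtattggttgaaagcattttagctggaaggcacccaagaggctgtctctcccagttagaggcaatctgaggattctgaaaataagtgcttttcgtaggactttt
The Apln region held 2 GC boxes, beginning 147 and 102 bases before the start. The Flt1 region held 3 GC boxes, at 201, 185 and 63 bases before the start, and a TATA box at 75 bases. The Slco1a4 region held none of these but contained CACGTG, which reads as the hypoxia core on both strands, and its GC content was 42.4% against 64.8% for Apln and 73.2% for Flt1. Among 27457 promoters of the same length, 32.39% held the GC box, 13.09% the TATA box, 16.95% the hypoxia core and 13.41% the ETS core, so each match is a description of the letters only. The matches were not tested against the expression values.

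Over the 24 libraries, Cldn5, the main claudin of brain endothelial tight junctions, was the most abundant of the genes at a mean of 50.6 FPKM. Apln followed at 12.5 FPKM and Slco1a4, an uptake transporter of organic anions in brain capillaries, at 11.98 FPKM. Apln was the higher of these in 13 of 24 libraries, so their levels did not separate. Esam, an endothelial cell adhesion molecule of the immunoglobulin family, had 6.49 FPKM and Flt1 had 6.27 FPKM, with Esam higher in 16 of 24 libraries. Abcb1a, which encodes the drug efflux pump P-glycoprotein, had 3.20 FPKM, Tek 2.75 FPKM and Kdr 1.18 FPKM. Aplnr was the lowest at 0.485 FPKM, with only 4 to 85 reads in a library against 400 to 980 for Apln. The other neighbours in this order kept it in 22 or more of the 24 libraries.

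On the build rn6, Apln (ENSRNOG00000003984) lies on chromosome X from 134856726 to 134866210, Aplnr (ENSRNOG00000009227) on chromosome 3 from 72540538 to 72544182, and Cldn5 (ENSRNOG00000045811) on chromosome 11 from 86356294 to 86357718. Flt1 (ENSRNOG00000000940) lies on chromosome 12 from 9034308 to 9205905, Kdr (ENSRNOG00000046829) on chromosome 14 from 34727623 to 34787183, and Tek (ENSRNOG00000008587) on chromosome 5 from 113725717 to 113852799. Esam (ENSRNOG00000033217) spans 39997875 to 40008809 on chromosome 8. Abcb1a (ENSRNOG00000008012) spans 22133521 to 22425515 and Slco1a4 (ENSRNOG00000047493) spans 175969549 to 176026163, both on chromosome 4. Cldn5 lies within the span of Cdc45, a gene on the opposite strand with a mean of 1.03 FPKM, and it is not stated whether the counting used the strand. Abcb1a and Slco1a4 have close paralogs with which reads may be shared, so their values are uncertain to that extent.

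**Figure D1:**
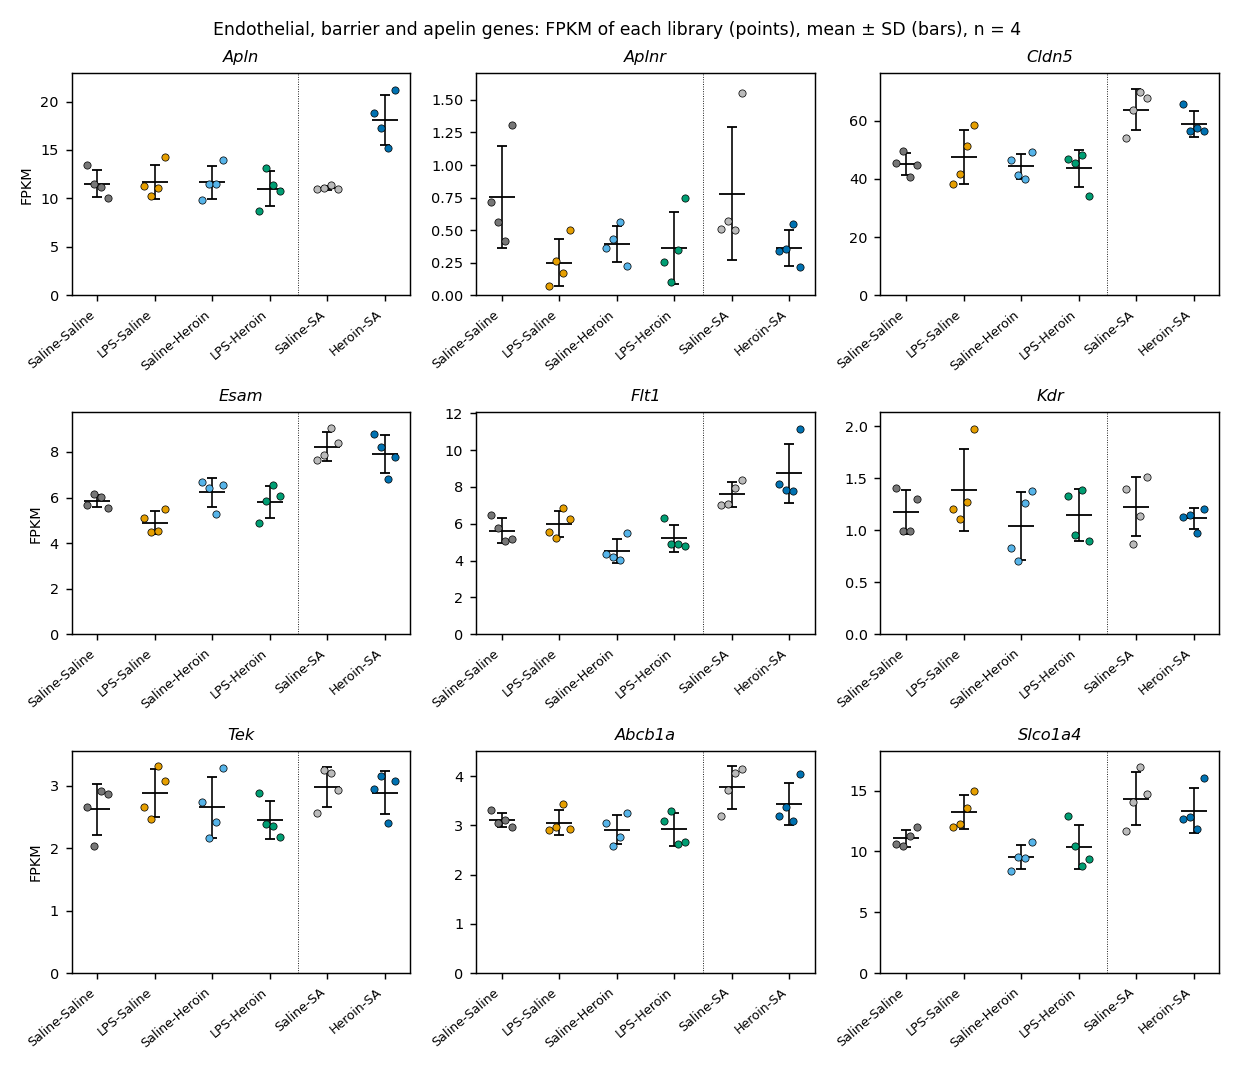
FPKM of the 9 genes (vertical axes, each from 0) in the 6 groups (horizontal axes), with a point for each library and bars for the mean ± SD of 4 libraries; a dotted line parts the injection from the self-administration experiment. All 4 Heroin-SA libraries sit above every other library for Apln, and all 8 self-administration libraries sit above every injected library for Esam and Flt1.

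Apln, the apelin gene, was the gene of the set that rose after heroin self-administration. Apln was at 18.8, 17.2, 15.2 and 21.2 FPKM in the 4 Heroin-SA libraries and at 10.95, 11.03, 11.4 and 10.97 FPKM in the 4 Saline-SA libraries. The groups did not overlap, and the other 20 libraries of the study lay between 8.71 and 14.2 FPKM, below the lowest Heroin-SA value. The means were 18.1 ± 2.54 FPKM (SD, n = 4) in Heroin-SA and 11.1 ± 0.223 FPKM (SD, n = 4) in Saline-SA. The log2 fold change in limma, on the scale of log2(FPKM + 0.1), was 0.69 with a standard error of 0.10 (unadjusted p = 8.85e-05, adjusted p = 0.198 over all genes tested). The 2-sided exact permutation test gave p = 0.0286, the smallest that 4 libraries against 4 allow.

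Apln was thus 1 of 9 genes that passed the thresholds used throughout, p without adjustment no larger than 0.05 and a change of 1.3-fold or more in either direction. Over all 15024 genes tested in this comparison 5.45% passed them, and 6.8% had groups that did not overlap, against 1 of the 9 here (Apln). In limma 0 genes reached an adjusted p under 0.05, while 1725 had an unadjusted p under 0.05 and limma-voom on recovered reads also gave 0. With all 24 libraries in the fit the adjusted p of Apln in limma was 0.0308, within a range of 0.0308 to 0.468 over the 16 alternatives. Its log2 fold change was between 0.61 and 0.77 in these. Red blood cell markers summed to 4649 FPKM in Saline-SA replicate 4 and 3080 FPKM in Heroin-SA replicate 4, and to at most 1743 FPKM elsewhere. Without the former library the log2 fold change of Apln was 0.69, and without the latter it was 0.61.

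The receptor of apelin, Aplnr, was at 0.338, 0.360, 0.551 and 0.219 FPKM in Heroin-SA and at 0.507, 0.570, 0.5 and 1.55 FPKM in Saline-SA, with overlapping groups. Its log2 difference was -0.82 with a 95% interval from -1.86 to 0.23 in limma, at 12 to 85 reads per library. Saline-SA replicate 4 held the highest value, and without that library and with no filter on low values the difference was -0.47. Aplnr reached the limit for testing only through Saline-SA, so nothing is read from its sign. Of the VEGF and angiopoietin receptors, Flt1 had 8.15, 7.86, 7.80 and 11.1 FPKM in Heroin-SA against 7.04, 7.05, 7.92 and 8.36 FPKM in Saline-SA, and the highest value came from Heroin-SA replicate 4 alone. The log2 difference of Flt1 was 0.19 with all libraries and 0.07 without that replicate. Kdr, at 1.12 ± 0.0988 and 1.23 ± 0.284 FPKM (SD, n = 4), and Tek, at 2.89 ± 0.339 and 2.98 ± 0.317 FPKM (SD, n = 4), overlapped between Heroin-SA and Saline-SA.

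Junction and transport genes of the set also stayed within the spread of the self-administration groups. Cldn5 averaged 59.0 ± 4.47 FPKM (SD, n = 4) in Heroin-SA and 63.9 ± 6.99 FPKM (SD, n = 4) in Saline-SA, and the 95% interval of the log2 difference ran from -0.32 to 0.10. Esam averaged 7.90 ± 0.837 and 8.23 ± 0.633 FPKM (SD, n = 4), with an interval from -0.30 to 0.18. For Abcb1a the means were 3.42 ± 0.426 and 3.78 ± 0.437 FPKM (SD, n = 4), and for Slco1a4 they were 13.3 ± 1.86 and 14.3 ± 2.18 FPKM (SD, n = 4). The median log2 fold change of the 9 genes was -0.10 and that of all genes tested 0.01. A difference in these genes of the size seen for Apln lies outside the intervals of Cldn5 and Esam.

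Other genes of the same pathways were counted from lists drawn up by hand for endothelial identity, junctions, transport, VEGF, angiopoietin and apelin signaling, Wnt signaling of the barrier, and hypoxia. In Heroin-SA against Saline-SA 5.45% of all genes tested passed the thresholds, and 6.8% had groups that did not overlap. There, 1 of 21 endothelial identity genes tested fell and 0 rose, with a median log2 fold change of 0.00. That gene was Ramp2, the accessory protein of the adrenomedullin receptor, at 11.3 ± 1.85 FPKM (SD, n = 4) in Heroin-SA and 16.7 ± 5.36 FPKM (SD, n = 4) in Saline-SA. Among 10 genes of the junction list 1 fell, Mfsd2a, itself a lipid transporter that restrains transcytosis at the barrier and not a junction protein. Mfsd2a went from 11.002 ± 0.618 to 8.01 ± 0.660 FPKM (SD, n = 4), and the groups did not overlap. Among 12 transporters 1 fell, Slc7a5, a carrier of large neutral amino acids, from 20.7 ± 0.546 to 15.96 ± 2.08 FPKM (SD, n = 4), again without overlap. Of 11 genes of the VEGF, angiopoietin and apelin list 1 fell, Apold1, an early response gene of endothelium, and of 11 Wnt genes 1 fell, the Wnt inhibitor Apcdd1. Apcdd1 averaged 4.38 ± 0.881 FPKM in Heroin-SA and 8.02 ± 4.67 FPKM in Saline-SA (SD, n = 4), without overlap. The highest Saline-SA library held 15.0 FPKM, far above that group's mean, so the size of the fall depends partly on it.

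Apln is a known target of hypoxia-inducible factors, and other such targets were counted beside it. Of its 13 genes tested 1 rose, P4ha1, a subunit of collagen prolyl hydroxylase, from 22.3 ± 2.54 to 32.9 ± 5.28 FPKM (SD, n = 4) with no overlap of the groups. Its log2 fold change was 0.55 with a standard error of 0.12 (adjusted p = 0.264 in limma). Ndrg1 was at 65.8 ± 13.5 and 50.1 ± 3.94 FPKM (SD, n = 4), without overlap. Its log2 difference of 0.38 was just below the fold threshold. Hilpda averaged 15.5 ± 3.26 FPKM in Heroin-SA and 18.3 ± 1.84 FPKM in Saline-SA (SD, n = 4), with overlapping groups. The list's median was 0.08, and 9 of 13 genes had a positive log2 fold change. Summed over its 14 genes with values, the list ran from 347.8 to 365.6 FPKM in Saline-SA. The sum ran from 375.5 to 432.6 FPKM in Heroin-SA, without overlap. The part of hypoxia in the values of Apln was not tested. Markers of mural cells, fibroblasts and red blood cells gave 0 genes past the thresholds in this comparison, of 11, 7 and 5 tested. The summed mural markers ran from 98.6 to 137.9 FPKM in Saline-SA and from 102.2 to 126.2 FPKM in Heroin-SA.

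Injected heroin went with lower levels of Slco1a4 and Flt1 without bringing either past the fold threshold. Slco1a4 was at 10.6, 10.5, 11.3 and 11.99 FPKM in Saline-Saline and at 8.37, 9.52, 9.44 and 10.8 FPKM in Saline-Heroin. It was at 11.99, 12.3, 13.6 and 15.0 FPKM in LPS-Saline and at 12.9, 10.5, 8.82 and 9.39 FPKM in LPS-Heroin. Heroin groups were thus lower on average with either pretreatment, and both pairs of groups overlapped. The main effect of heroin over the 16 injected libraries, with the pretreatment in the model, was a log2 fold change of -0.29 with a standard error of 0.08 (unadjusted p = 0.00288, adjusted p = 0.547 in limma). The 2-sided exact permutation test within pretreatments gave p = 0.00449. In all 24 alternatives the unadjusted p of limma stayed at or below 0.00735, and without Saline-Saline replicate 1 the log2 fold change was -0.30.

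For Flt1, a receptor that binds VEGF and limits its access to Kdr, values were 6.50, 5.78, 5.05 and 5.15 FPKM in Saline-Saline and 4.36, 4.22, 4.01 and 5.50 FPKM in Saline-Heroin. They were 5.55, 5.24, 6.84 and 6.25 FPKM in LPS-Saline and 6.29, 4.91, 4.88 and 4.77 FPKM in LPS-Heroin. A single library of each heroin group, Saline-Heroin replicate 4 and LPS-Heroin replicate 1, reached into the range of its control group. The main effect of heroin was -0.25 with a standard error of 0.09 (unadjusted p = 0.0151, adjusted p = 0.572 in limma), and the exact permutation p was 0.0171. It kept its sign in each of 24 alternatives, at -0.30 to -0.22, and was -0.22 without Saline-Saline replicate 1.

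Esam had the opposite sign. Its values were 5.68, 6.14, 6.01 and 5.56 FPKM in Saline-Saline, 6.70, 6.44, 5.30 and 6.54 FPKM in Saline-Heroin, 5.10, 4.48, 4.52 and 5.50 FPKM in LPS-Saline and 4.87, 5.84, 6.53 and 6.06 FPKM in LPS-Heroin. The LPS-Saline group held the lowest values of the gene. The main effect of heroin was 0.17 with a standard error of 0.08 (unadjusted p = 0.0470, adjusted p = 0.604 in limma), and 14 of 24 alternatives left it with an unadjusted p over 0.05. Without Saline-Saline replicate 1 it was 0.16 (unadjusted p = 0.0734 in limma). Under the thresholds 0 of 8 genes tested passed for the heroin main effect, where 2.46% of all genes did. Their median was -0.09, and 1 of the 8 was positive (Esam).

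Apln, which was higher after self-administered heroin, had a log2 difference of -0.04 after injected heroin, over both pretreatments. It was at 13.4, 11.5, 11.2 and 10.1 FPKM in Saline-Saline, 9.84, 11.5, 11.5 and 13.9 FPKM in Saline-Heroin, 11.3, 10.3, 11.1 and 14.2 FPKM in LPS-Saline, and 8.71, 13.1, 11.4 and 10.8 FPKM in LPS-Heroin. All 4 groups overlapped each other. Cldn5 (-0.07), Abcb1a (-0.08), Tek (-0.10) and Kdr (-0.22) likewise had log2 main effects of heroin whose 95% intervals included 0. Aplnr was below the limit of a mean FPKM of 0.5 over the 16 libraries and had no main effect fitted.

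**Figure D2:**
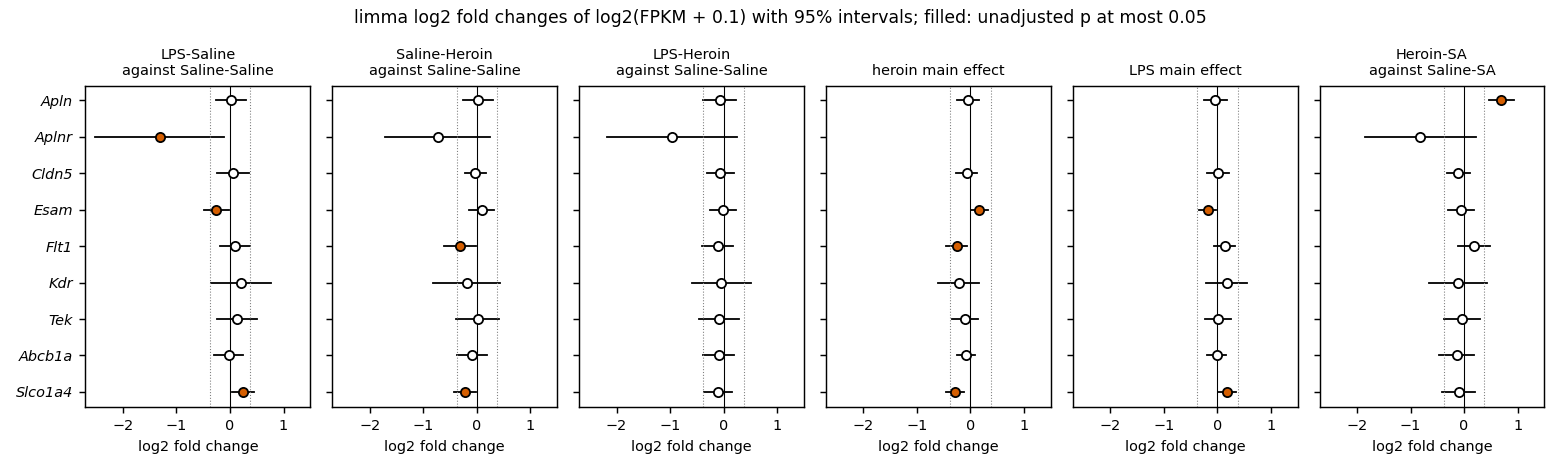
Log2 fold changes of log2(FPKM + 0.1) from limma with 95% intervals (horizontal axes) for the 9 genes (rows) in 6 of the comparisons, with 8 libraries in each comparison of 2 groups and 16 in each main effect; filled points have an unadjusted p of at most 0.05, dotted lines mark the 1.3-fold threshold, and Aplnr is absent where it was not tested. Apln at 0.69 in the self-administration panel and Aplnr at -1.32 in the LPS-Saline panel are the filled points beyond the dotted lines.

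In the heroin main effect 2 of 20 endothelial identity genes (Sox18 and Plvap) fell and 0 rose, with a median of -0.07 against -0.00 for all genes. Over all genes tested 2.46% passed the thresholds. Sox18, a transcription factor of endothelial differentiation, averaged 2.54 ± 0.359 FPKM (SD, n = 4) in Saline-Heroin and 3.36 ± 0.890 in LPS-Heroin, against 4.37 ± 0.712 in Saline-Saline and 4.22 ± 0.577 in LPS-Saline. Its log2 fold change was -0.55 with a standard error of 0.13 (adjusted p = 0.516 in limma). Plvap, which marks fenestrated endothelium and is low in barrier vessels, averaged 1.49 ± 0.162 FPKM (SD, n = 4) with saline alone and had means of 0.733 to 0.855 FPKM in the other injected groups, LPS-Saline without heroin included. Among junction genes 1 of 10 fell, Ocln, which encodes occludin (-0.56), and among transporters 1 of 12 fell, Abcg2, a drug efflux pump (-0.54). Slco1c1, the thyroxine carrier and a relative of Slco1a4, was lower by a log2 difference of -0.33 (unadjusted p = 0.000149, adjusted p = 0.375 in limma), under the fold threshold. Of 12 genes of the VEGF, angiopoietin and apelin list 1 rose, Apold1 (0.73), and of 11 Wnt and 13 hypoxia genes 0 passed. Apold1 ran from 3.09 to 14.1 FPKM in Saline-Heroin and from 6.30 to 20.8 FPKM in LPS-Heroin. It ran from 3.88 to 6.39 FPKM in Saline-Saline and from 3.23 to 8.27 FPKM in LPS-Saline, so heroin and control groups overlapped.

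Red blood cell markers rose in the same main effect. Of 5 red blood cell markers tested for the heroin main effect 4 rose (Hbb-b1, Hba1, Hba2 and Hbb), with a median log2 fold change of 0.66, and 2 of these (Hbb-b1 and Hba1) still passed without Saline-Saline replicate 1. Their sum ran from 408 to 598 FPKM in Saline-Saline, 335 to 1160 FPKM in LPS-Saline, 447 to 1743 FPKM in Saline-Heroin and 579 to 851 FPKM in LPS-Heroin. All 7 fibroblast markers had a positive log2 difference, with a median of 0.52, and 0 of them passed the thresholds. The mean fibroblast sum was 46.4 FPKM in Saline-Heroin and 29.1 FPKM in Saline-Saline, and 26.7 FPKM in LPS-Heroin and 33.9 FPKM in LPS-Saline. The mean mural sum was 100.5 FPKM in Saline-Heroin and 74.1 FPKM in Saline-Saline, and 73.6 FPKM in LPS-Heroin and 79.9 FPKM in LPS-Saline. Both mean sums were thus higher with heroin after saline and lower with heroin after LPS, and 0 of 11 mural markers passed in the main effect. The lower means after LPS depended on LPS-Saline replicate 4, at 104.3 FPKM for fibroblast and 127.1 FPKM for mural markers. The other LPS-Saline libraries ran from 9.26 to 11.05 FPKM and from 49.8 to 82.4 FPKM. LPS-Heroin libraries ran from 12.03 to 56.2 FPKM and from 53.2 to 93.7 FPKM, so no fall with heroin after LPS is read from these means. No marker of these lists was at 0 in a whole group. The part of blood and vessel wall content in the values of Slco1a4, Flt1 and Esam was not tested.

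**Figure D3:**
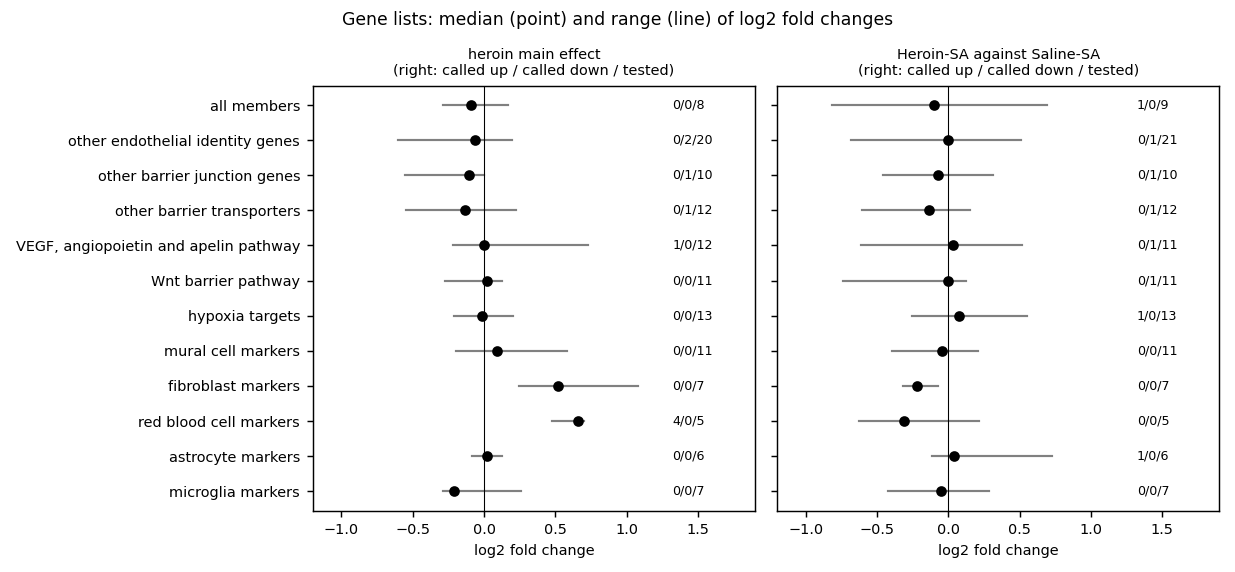
Log2 fold changes (horizontal axes) of the gene lists (rows) in the heroin main effect over 16 injected libraries (left) and in Heroin-SA against Saline-SA with 8 libraries (right); points are medians, lines run from the lowest to the highest gene, and the figures on the right give the genes called up, called down and tested. In the left panel the red blood cell markers have a median of 0.66 with 4 of 5 called up, and the endothelial lists have medians near 0 in both.

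A past LPS challenge alone left a mixed pattern in the set. In LPS-Saline against Saline-Saline, Slco1a4 had a log2 difference of 0.25 and Esam one of -0.26, each with groups that did not overlap and an exact permutation p of 0.0286. The lowest LPS-Saline value of Slco1a4 and the highest Saline-Saline value both round to 11.99 FPKM, so the separation was narrow. Without Saline-Saline replicate 1 the differences were 0.23 and -0.27, with unadjusted p-values of 0.0593 and 0.0501 in limma. LPS-Saline replicate 4 had the highest sum of fibroblast markers of all libraries (104.3 FPKM), and without it the differences were 0.19 and -0.31. The share of genes without overlap was 4.11% of all tested, against 2 of these 9 (Slco1a4 and Esam). Both stayed below the fold threshold.

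Aplnr was the gene of the set that passed the thresholds after LPS, where 2.37% of all genes tested did. It was at 0.0745, 0.265, 0.170 and 0.498 FPKM in LPS-Saline and at 0.716, 0.561, 0.419 and 1.31 FPKM in Saline-Saline, and the groups overlapped. These values rest on 4 to 25 and 22 to 70 reads per library. The log2 fold change was -1.32 with a standard error of 0.54 (unadjusted p = 0.0365, adjusted p = 0.736 in limma), and the exact permutation p was 0.0571. Over the alternatives the log2 fold change ran from -1.73 with limma-voom to -0.47 with a pseudocount of 1. Without Saline-Saline replicate 1 and with no filter it was -1.30. The mean of Aplnr reached the limit for testing only through the Saline-Saline libraries, so no support is drawn from this value. The unadjusted p was over 0.05 without LPS-Saline replicate 1, 2 or 3. Its ligand Apln had a log2 difference of 0.02. Flt1 (0.09), Kdr (0.21), Tek (0.14), Cldn5 (0.06) and Abcb1a (-0.03) did not pass either.

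The main effect of LPS over the 16 libraries had the same signs for Slco1a4, at 0.18 with a standard error of 0.08 (unadjusted p = 0.0397, adjusted p = 0.730 in limma), and for Esam, at -0.18 with a standard error of 0.08 (unadjusted p = 0.0345, adjusted p = 0.730 in limma). The exact permutation p-values were 0.0433 and 0.0318. All 7 fibroblast markers had a negative log2 difference here, with a median of -0.68 and 0 past the thresholds, and their part in these values was not tested. Without Saline-Saline replicate 1 the main effect of LPS was 0.17 for Slco1a4 (unadjusted p = 0.0679 in limma) and -0.18 for Esam (unadjusted p = 0.0413 in limma). For the LPS main effect 0 of 8 genes passed the thresholds, where 1.77% of all genes did, and 11 of 24 alternatives for Slco1a4 and 10 of 24 for Esam raised the unadjusted p above 0.05. Of the endothelial activation genes, which include adhesion molecules that inflamed vessels display, 0 of 4 tested passed either in the main effect or in LPS-Saline against Saline-Saline. In the latter comparison 2.37% of all genes tested passed. Plvap fell there (-0.74) as 1 of 20 endothelial identity genes, and Nkd1, a Wnt feedback inhibitor, fell (-0.48) as 1 of 11 Wnt genes.

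For the remaining comparisons of the injection experiment, 0 of the genes passed the thresholds. The share of all genes that did was 3.07% in Saline-Heroin against Saline-Saline, 5.43% in LPS-Heroin against Saline-Saline, 2.29% in LPS-Heroin against LPS-Saline and 2.2% in LPS-Heroin against Saline-Heroin. In each, 0 of the 9 genes had groups without overlap, where 3.39%, 6.86%, 2.58% and 2.37% of all genes did. In Saline-Heroin against Saline-Saline, Slco1a4 (-0.22) and Flt1 (-0.31) had unadjusted p-values of 0.0396 and 0.0437 in limma, both with an adjusted p of 0.750. Without Saline-Saline replicate 1 they were 0.0468 and 0.118. In LPS-Heroin against LPS-Saline, Slco1a4 had a log2 difference of -0.35 (unadjusted p = 0.0235, adjusted p = 0.977 in limma). Of 12 listed transporters Abcg2 (-0.70) and Slc7a1, a cationic amino acid carrier (-0.45), fell there, and Apold1 rose (0.97) with overlapping groups. The LPS by heroin interaction gave 0 of 8 genes past the thresholds, with 2.31% of all genes, and 0 of the 8 had an unadjusted p of at most 0.05. Listed genes past the thresholds in the interaction were Cav1 (0.41), Nkd1 (0.66), Hilpda (-0.54) and the microglia marker Cx3cr1 (0.57). Most listed genes did not pass there, and 2.31% of all genes did, so no interaction is read from these names. Cav1 encodes the caveolar protein caveolin-1. Nkd1 and Cx3cr1 no longer passed without Saline-Saline replicate 1. The comparisons with Saline-Saline share those 4 libraries.

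In LPS-Heroin against Saline-Saline all 9 genes had a negative log2 difference, with a median of -0.09, and 0 of them had an unadjusted p of at most 0.05. They include Aplnr, which reached the limit for testing only through Saline-Saline. Listed genes around them did pass in this comparison, where 5.43% of all genes tested did. Ocln (-0.69) and Cgn (-0.70), which encodes the junction protein cingulin, fell among 10 junction genes, and Abcg2 (-0.73) fell among 12 transporters, from 3.91 ± 0.916 to 2.29 ± 0.260 FPKM (SD, n = 4). Plvap (-0.95) and Ramp2 (-0.44) fell among 21 endothelial identity genes. Vegfb, a ligand of Flt1, fell from 19.9 ± 0.736 to 15.3 ± 1.97 FPKM (SD, n = 4), and Apold1 rose (0.86) with overlapping groups. Ocln and Cgn no longer passed without Saline-Saline replicate 1. In Saline-Heroin against Saline-Saline 3.07% of all genes tested passed. The vascular and hypoxia genes that passed were Sox18 (-0.76) and Plvap (-1.002), Slco1c1 (-0.39), the Wnt effector Lef1 (-0.62) and the hypoxia target Hilpda (0.47). Their lists held 23 endothelial identity, 12 transporter, 11 Wnt and 14 hypoxia genes with values. Without Saline-Saline replicate 1, Lef1 no longer passed, at -0.44 (unadjusted p = 0.134 in limma). Slco1c1, at -0.37 (unadjusted p = 0.00669 in limma), then missed the fold threshold only. The mural markers Tagln (1.35) and Acta2 (1.37), the fibroblast marker Col1a1 (1.198) and the red blood cell markers Hbb-b1 (0.88) and Hba1 (0.83) rose in the same comparison, of which Hbb-b1 alone still passed without that library.

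The effect of heroin in the 2 experiments was compared directly, as the Heroin-SA to Saline-SA difference less the Saline-Heroin to Saline-Saline difference. For Apln this was 0.68 with a standard error of 0.16 (unadjusted p = 0.000885, adjusted p = 0.563 in limma), and the log2 differences themselves were 0.69 and 0.01. For Flt1 it was 0.50 with a standard error of 0.19 (unadjusted p = 0.0182, adjusted p = 0.718 in limma), from 0.19 and -0.31. Thus 2 of 9 genes passed the thresholds, where 4.38% of all genes did. Flt1 dropped to 0.377 without Heroin-SA replicate 4, just under the fold threshold, and was 0.43 without Saline-Saline replicate 1. Apln was 0.60 with each of these libraries left out in turn. For the other 7 genes the log2 values lay between -0.15 and 0.12. Of 21 endothelial identity genes Sox18 (0.92) and Sox17 (0.64) passed with a positive difference. Among 12 transporters Slco1c1 (0.50) and the organic anion transporter Slc22a8 (-1.25) passed with opposite signs. The lipid transporter Mfsd2a (-0.43) passed among 10 genes of the junction list and Apcdd1 (-0.82) among 11 Wnt genes, both negative. Of 13 hypoxia targets Ndrg1 (0.59) and Hilpda (-0.72) passed. Of 11 mural markers Tagln (-1.58) and Acta2 (-1.53) passed with a negative and Rgs5 (0.52) with a positive difference, and their part in the values of Apln and Flt1 was not tested. Apcdd1 and Acta2 no longer passed without Saline-Saline replicate 1. The size of the Apcdd1 difference also depends partly on the Saline-SA library at 15.0 FPKM. The experiments differed in route, dose, schedule, housing and light cycle. They also differed in the delay from the last drug to the tissue and in the locomotor session of the injected rats. These differences cannot be told apart.

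Levels also differed between the experiments whatever the treatment. Esam ran from 6.81 to 9.05 FPKM in the 8 self-administration libraries and from 4.48 to 6.70 FPKM in the 16 injected ones. Flt1 ran from 7.04 to 11.1 FPKM and from 4.01 to 6.84 FPKM. For these genes all 8 self-administration libraries exceeded every injected library, while for Cldn5, Abcb1a and Apln 4 of 8 did, for Slco1a4 2, for Aplnr 1 and for Kdr and Tek 0. The 4 such libraries of Apln were those of Heroin-SA. The higher share of mitochondrial reads lay in the same 8 libraries. Mean sums of the other endothelial identity genes were 71.0 to 75.9 FPKM in injected groups and 95.1 to 96.6 FPKM in self-administration groups. For medium spiny neuron markers they were 1584 to 1674 and 2265 to 2372 FPKM, and for astrocyte markers 598 to 617 and 455 to 462 FPKM. The part of tissue content and of mitochondrial reads in these levels was not tested.

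Ordered by group means, Apln ran from Heroin-SA (18.1 FPKM) through LPS-Saline (11.7), Saline-Heroin (11.7), Saline-Saline (11.5) and Saline-SA (11.1) to LPS-Heroin (10.998), and the only neighbours whose libraries did not overlap were Heroin-SA and LPS-Saline. For Esam the break lay between Heroin-SA (7.90 FPKM) and Saline-Heroin (6.24), and LPS-Saline was last (4.90). Flt1 broke between Saline-SA (7.59 FPKM) and LPS-Saline (5.97), with Saline-Heroin last (4.52). For Slco1a4 it was LPS-Saline (13.2 FPKM) and Saline-Saline (11.1) that did not overlap, below Saline-SA (14.3) and Heroin-SA (13.3). Neighbours of Cldn5, Kdr, Tek, Abcb1a and Aplnr overlapped throughout the order.

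With each group's mean removed, the genes other than Apln and Aplnr tended to vary together from library to library. Of their 21 pairs 18 had a positive Pearson r over the 24 libraries, with a median of 0.41 and a range of -0.06 to 0.74. Values of a library share its depth and its vessel content. Apln had positive r with all 7, from 0.16 to 0.48. Set against their mean, Apln gave r = 0.45 (permutation p = 0.0606, adjusted p = 0.121) and Spearman's rho = 0.37 (permutation p = 0.131, adjusted p = 0.261). Against the mean of all 8 others, Aplnr included, it gave r = 0.25 (permutation p = 0.269, adjusted p = 0.269) and rho = 0.22 (permutation p = 0.337, adjusted p = 0.337), and p-values were adjusted over these 2 relations. Without the 2 libraries farthest from the median, r was 0.24 and 0.10. Within the injection experiment r was 0.36 for the 7 genes and 0.23 for the 8, and within self-administration 0.74 and 0.32. The mean of 7 genes was added after the values had been seen.

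**Figure D4:**
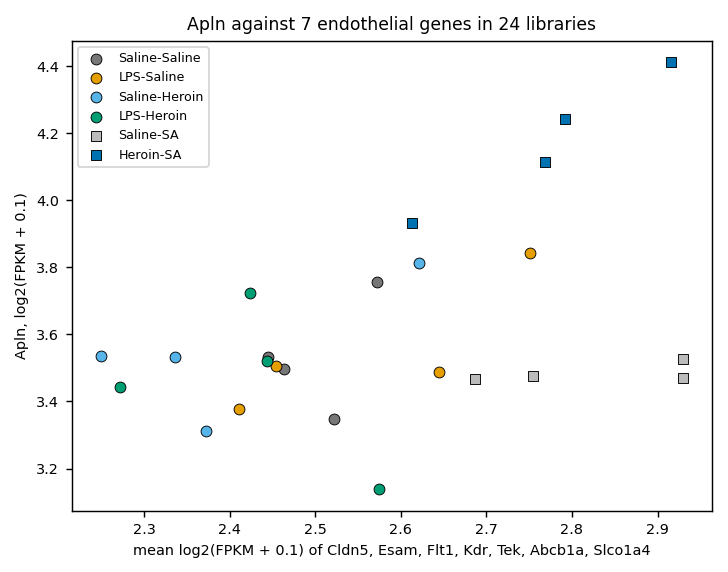
Log2(FPKM + 0.1) of Apln (vertical axis) against the mean of log2(FPKM + 0.1) over Cldn5, Esam, Flt1, Kdr, Tek, Abcb1a and Slco1a4 (horizontal axis) in the 24 libraries, colored by group, with squares for self-administration; group means are not removed here. The 4 Heroin-SA libraries lie above the 4 Saline-SA libraries over a shared range of the endothelial mean.

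Among 13863 genes with a mean of at least 1 FPKM, those closest to Apln after removal of the group means were Zfand1 (r = 0.73), Itgb1, an integrin subunit (0.70), AC117869.1 (0.69), LOC102548225 (0.67) and Laptm4a (0.67), over 24 libraries. Closest to the mean of the other 8 genes were Pcolce, an enhancer of procollagen processing (0.81), Cgnl1, a paralog of cingulin at cell junctions (0.79), Pgm5 (0.78), Ccdc80 (0.78) and Mvp (0.77). With Aplnr left out of the mean they were Nacc2 (0.79), Adgrf5, an adhesion receptor of endothelial cells (0.71), Cxcl12, a chemokine (0.70), Ppfia1 (0.70) and Hsd11b1 (0.69), so the genes named differed with the inclusion of Aplnr.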

How the data were processed

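NAc tissue of 6 groups with 4 libraries each was measured by directional, paired-end sequencing of polyadenylated RNA. Per the submitters' processing notes and the study's methods, reads were trimmed with fastp, aligned with HISAT2 to rn6 and counted on genes with featureCounts, in versions not given in the sources used here. The authors deposited FPKM values for 32545 genes, that is counts scaled by gene length and library size. Values multiplied by gene length were whole multiples of a step in each library (tolerance 0.01), so whole reads could be recovered from 100% of them. The study's methods state more animals sequenced per group than the 4 libraries analysed here. The labels do not say how libraries map to animals beyond separate replicates, so p-values measure the spread between libraries. No 2 libraries of a group agreed within sampling noise.

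Groups were taken from the labels. Log2(FPKM + 0.1) was fitted with limma-trend (limma 3.58.1, R 4.3.3) over genes with a mean of at least 0.5 FPKM in the libraries compared, with Benjamini-Hochberg adjustment over all genes tested. Fold changes on this scale understate the change of low genes. Genes were called where p before adjustment was no larger than 0.05 and the change was 1.3-fold or more either way. Main effects and the interaction were fitted in the 16 injected libraries. Exact permutation tests were run over libraries, within pretreatment for main effects (scipy 1.17.1), and correlations used 100000 permutations within groups. The fits were tested on simulated data.

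Genes named were all 10 of the set where measured and the 5 genes most alike to a pattern by Pearson r. Genes of the hand-written lists that passed the thresholds were also named, at most 4 for each list and comparison. Listed symbols with several rows in the data were not named among these. Ndrg1, Hilpda and Slco1c1, where named below a threshold, were chosen after their values were seen. The genes of the set and the lists were chosen with earlier results of these data known. Pseudocounts of 1 and 0.01, no filter, a mean of at least 1 FPKM, quantile normalization, all 24 libraries in a single fit, limma-voom on recovered reads, the replicate block and leaving out each library were tried.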

Additional observations from a re-analysis of the deposited data

Results flagged for a closer look

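Within a group, 6 of 54 sets of 4 libraries had a value far from the other 3, where chance gives about 1 in 20. Apln was at 11.4 FPKM in Saline-SA replicate 3, above 10.95 to 11.03 FPKM in the other 3 libraries, a small gap in a tight group. Aplnr was at 1.55 FPKM in Saline-SA replicate 4, above 0.5 to 0.570 FPKM in the others, and this is also the library with the highest sum of red blood cell markers. Cldn5 was at 65.7 FPKM in Heroin-SA replicate 1, above 56.4 to 57.4 FPKM. Flt1 was at 6.29 FPKM in LPS-Heroin replicate 1, above 4.77 to 4.91 FPKM, and at 11.1 FPKM in Heroin-SA replicate 4, above 7.80 to 8.15 FPKM. Abcb1a was at 3.43 FPKM in LPS-Saline replicate 3, above 2.91 to 2.96 FPKM.

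The effect of heroin differed between self-administration and injection for Apln, by 0.68 on the log2 scale, and for Flt1, by 0.50, at an unadjusted p in limma, and neither passed adjustment over all genes.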

How the results depend on the processing

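The log2 fold changes of 14 pairs of a gene of the set and a comparison had an unadjusted p of at most 0.05. Over their 275 alternatives, 208 kept the direction and the side of that threshold, 67 kept the direction only, and 0 reversed. Of the other 71 pairs, 5 reached an unadjusted p of 0.05 in at least 1 alternative. The number of genes past the thresholds in LPS-Saline against Saline-Saline was 1 (Aplnr), 0 with a mean of at least 1 FPKM, where Aplnr is no longer tested, 0 with all 24 libraries in a single fit, and 0 to 1 with each library left out. In Saline-Heroin against Saline-Saline it was 0 to 1 with each library left out (Flt1 at -0.41 without Saline-Heroin replicate 4). In LPS-Heroin against Saline-Saline it was 1 with limma-voom (Aplnr) and 0 to 1 with each library left out (Aplnr without LPS-Heroin replicate 4). In LPS-Heroin against LPS-Saline it was 0 to 1 (Slco1a4 without LPS-Saline replicate 1, LPS-Saline replicate 2 or LPS-Heroin replicate 1). For the LPS main effect it was 1 with no filter on low values (Aplnr), and for the comparison of self-administered with injected heroin it was 1 to 2 (Apln alone without Heroin-SA replicate 4). The cause of these shifts was not tested beyond the filter. Further alternatives were chosen after seeing the data, listed genes without Saline-Saline replicate 1 and Aplnr without each library and with no filter. The latter gave -1.62 to -1.03 in LPS-Saline against Saline-Saline and -0.99 to -0.47 in Heroin-SA against Saline-SA.

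Same-numbered libraries had correlations of deviations from the group means between -0.15 and 0.15, and in 0 comparisons did all exceed 0.1, so the libraries share only a number. With the replicate block the log2 fold change of Apln in Heroin-SA against Saline-SA was 0.69 (adjusted p = 0.440 in limma), and the paired fit changed the number of genes past the thresholds in 0 comparisons. With 4 libraries a group, the reads limit Aplnr (4 to 85) and Kdr (71 to 172) most.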

Other observations

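Of genes outside the vascular lists, Sgk1, a glucocorticoid target, rose in Heroin-SA as 1 of 6 genes of its list tested. Of all genes tested there 5.45% passed the thresholds. Sgk1 went from 36.2 ± 2.91 to 55.5 ± 19.1 FPKM (SD, n = 4) with overlapping groups. The summed list averaged 183 FPKM in Saline-SA and 176 FPKM in Heroin-SA. Slc1a2, a glutamate transporter of astrocytes, rose as 1 of 6 astrocyte markers, again with overlapping groups (log2 fold change 0.73, adjusted p = 0.357 in limma). In LPS-Heroin against Saline-Heroin the smooth muscle genes Acta2 (-1.75), Tagln (-1.35) and Myh11 (-0.84) fell and the pericyte gene Rgs5 rose (0.40) among 11 mural markers. Over all genes tested 2.2% passed there. Acta2 averaged 4.76 ± 3.15 FPKM with LPS before heroin and 16.2 ± 11.3 FPKM without it (SD, n = 4 each), and the groups overlapped. In the same comparison Col1a1 fell as 1 of 7 fibroblast markers (-1.23). Of the 7 microglia markers, Cx3cr1 passed the thresholds in Saline-Heroin against Saline-Saline (-0.55), where 3.07% of all genes tested did. It also passed in the interaction (0.57) and in the comparison of self-administered with injected heroin (0.65), where 2.31% and 4.38% did. Without Saline-Saline replicate 1 it passed only in the last of these. Tmem119 passed in LPS-Heroin against Saline-Saline (0.45), where 5.43% of all genes tested did. P2ry12 (-0.60) and Itgam (-0.54) passed in LPS-Heroin against LPS-Saline, where 2.29% did. Mt2A, a metallothionein of the glucocorticoid list, rose in LPS-Heroin against Saline-Saline (0.43) and against LPS-Saline (0.54), and the red blood cell markers Hbb-b1, Hba1, Hba2 and Hbb rose in LPS-Heroin against Saline-Saline, by 0.54 to 1.10 on the log2 scale.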
